A study of Mus musculus with 8 samples.

Results

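This account covers the WNT ligands, their receptors and the modulators of the pathway in sorted pancreatic tumour cells. Members were taken by gene symbol alone: the Wnt, Fzd, Sfrp, Dkk, Lgr4 to Lgr6 and Rspo families, with Lrp5, Lrp6, Rnf43, Znrf3, Axin2, Sp5, Tcf7, Lef1, Notum and Porcn. The rule found 54 genes among the 24537 rows of the deposited count table.

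WNT proteins are secreted lipid-modified ligands. Porcupine, encoded by Porcn, attaches the lipid in the endoplasmic reticulum, and the ligand then binds a Frizzled receptor (Fzd) with the co-receptor Lrp5 or Lrp6 on a receiving cell. In the canonical branch this binding stops the destruction of beta-catenin, which enters the nucleus and joins TCF/LEF factors at target genes such as Axin2 and Sp5. R-spondins bind Lgr4, Lgr5 or Lgr6 and remove the ubiquitin ligases Rnf43 and Znrf3, which otherwise clear Frizzled from the cell surface, while the Sfrp and Dkk proteins block ligand or co-receptor outside the cell. In pancreatic tumours the pathway is known for its part in the growth and differentiation state of the duct-like tumour cells, and loss of RNF43 is known to make such cells depend on their own WNT ligands.

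RNA was sequenced from EpCAM-positive cells sorted from 8 tumours, each from its own mouse on the FVB/NJ background at 44 to 49 days of age. All mice carried Pdx1-Cre, which recombines floxed alleles in the pancreatic epithelium and its progenitors, with both Trp53 alleles floxed (Trp53f/f) and a luciferase reporter (Rosa26LSL-Luc). A further engineered allele shared by all 8 mice is not described here. The 4 tumours labelled KO were Lifrf/f, that is, with both alleles of the leukaemia inhibitory factor receptor gene floxed. Of the 4 tumours labelled WT, replicates 1 and 2 were Lifrf/+ and replicates 3 and 4 were Lifr+/+. The comparison asks how Lifr deficiency changes expression in the tumour cells.

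Each library held 14938875 to 22698340 reads assigned to genes. Lifr itself was at 158, 205, 150 and 220 CPM (read counts scaled to library size, with TMM factors) in replicates 1 to 4 labelled KO and at 126, 93.7, 71.8 and 99.6 CPM in those labelled WT. It was thus higher where a loss was labelled, and a deleted exon cannot be seen in counts of the full transcript, so every direction given here rests on the labels. Epcam, the antigen of the sort, was lower in the tumours labelled KO (360 to 499 CPM against 660 to 890 CPM). The summed level of 18 epithelial markers was 3839 to 5406 CPM against 7183 to 9595 CPM, and 14 of them fell. The summed level of 16 macrophage markers was 22768 to 29637 CPM against 8606 to 15681 CPM, and 15 of them rose. Fibroblast markers (12 genes, 2 called, both higher) summed to 798 to 4377 CPM against 427 to 1551 CPM, and acinar markers (13 genes, 0 called) to 1614 to 38618 CPM against 409 to 8002 CPM. None of the genes of these lists was at 0 in all tumours. Markers of pericytes (7 tested), endothelium (8) and islets (7) gave 0 calls, 2 of 6 mesothelial genes fell (Msln and Krt19, the latter also an epithelial marker) and 1 of 3 Schwann and neural genes fell (S100b). In such bulk samples fewer cells of a type and less RNA per cell cannot be told apart.

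Most of the WNT genes that differed were lower in the tumours labelled KO. Of the 54 genes, 39 passed the filter on low counts and were tested, and 16 of these fell, 2 rose and 21 did not pass (edgeR quasi-likelihood test, Benjamini-Hochberg adjusted p under 0.05 over all 14728 genes tested). The genes that fell were Porcn, Wnt7a, Wnt7b, Wnt5a, Fzd1, Fzd2, Fzd6, Fzd8, Fzd10, Lgr4, Lgr6, Rnf43, Tcf7, Lef1, Axin2 and Sp5, with Wnt5a, Fzd1, Fzd2, Fzd8, Lgr4 and Tcf7 above 0 once libraries were scaled to epithelial markers, and those that rose were Lrp6 and Sfrp4. The share of tested WNT genes called was 46.2%, beside 21.8% of all genes tested. In the lower direction it was 41.0% beside 10.8% of all genes, and in the higher direction 5.13% beside 11.1%. In 17 of the 39 genes all tumours labelled KO lay below all labelled WT, which held for 12.3% of all genes tested. The median log2 fold change (labelled KO minus labelled WT) of the 39 genes was −0.57, beside 0.011 for all genes tested. Sfrp4 passed the filter only through the tumours labelled KO (4 of 4, against 0 of 4 labelled WT). Sp5 passed it mainly through those labelled WT (4 of 4, against 1 of 4 labelled KO), so both calls are descriptions. Fitted with no filter on low counts, 17 of the 18 calls stayed, all but that of Fzd2 (edgeR adjusted p = 0.0646). Fzd10 had 1 tumour labelled KO below the filter's level.

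**Figure D1:**
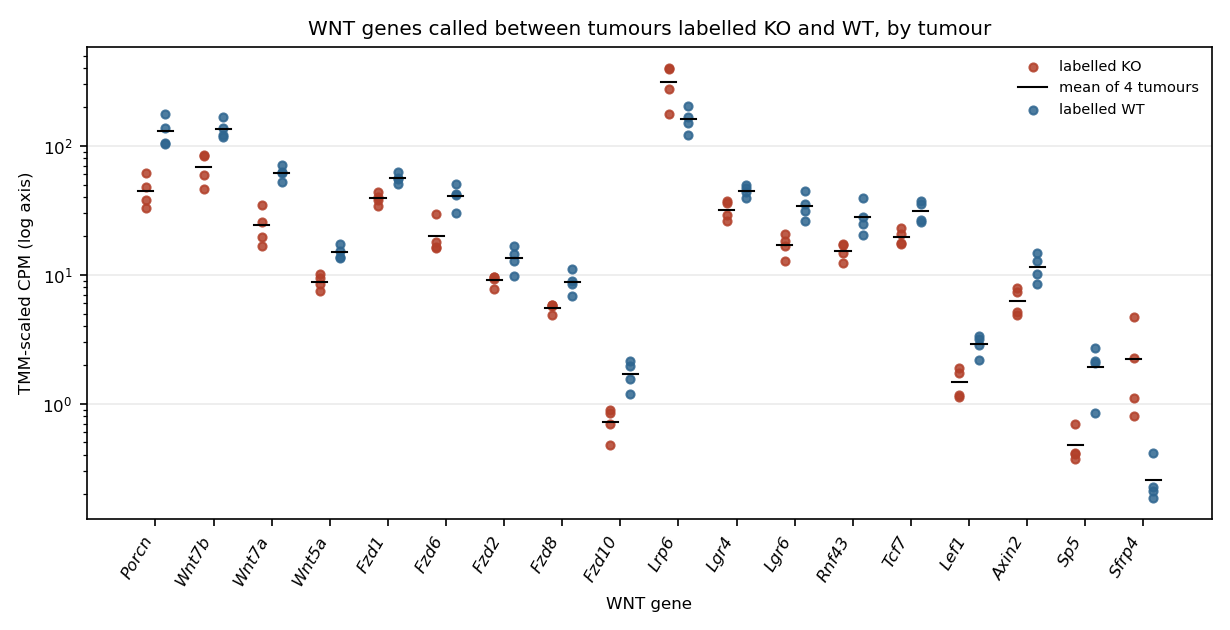
Each point is 1 tumour, with its TMM-scaled CPM on a log axis, for the 18 WNT genes called between the groups (red, labelled KO; blue, labelled WT; black bars, means of 4 tumours). Among these genes the groups overlapped only for Lrp6, where KO replicate 2 (176 CPM) lay below WT replicate 2 (203 CPM).

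The upstream sequence of 2 direct targets and of the ligand gene with the largest called fall is shown first, as a description only. Whether a motif bears on the falls was not tested. These are the 250 bases upstream of the RefSeq start site (GRCm38.p6, the same coordinates as mm10), 5′ to 3′ on the gene's strand, at chr2:70474673-70474922 (plus strand) for Sp5, chr11:108920099-108920348 (plus strand) for Axin2 and chr6:91411354-91411603 (minus strand) for Wnt7a. Capitals mark a match to the TCF/LEF core motif, searched as CTTTGAT and CTTTGAA on both strands.
Sp5: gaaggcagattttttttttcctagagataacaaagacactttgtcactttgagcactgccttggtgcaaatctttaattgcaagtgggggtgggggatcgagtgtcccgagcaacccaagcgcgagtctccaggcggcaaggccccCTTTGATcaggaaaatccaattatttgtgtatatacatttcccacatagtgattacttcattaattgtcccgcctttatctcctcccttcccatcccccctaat
Axin2: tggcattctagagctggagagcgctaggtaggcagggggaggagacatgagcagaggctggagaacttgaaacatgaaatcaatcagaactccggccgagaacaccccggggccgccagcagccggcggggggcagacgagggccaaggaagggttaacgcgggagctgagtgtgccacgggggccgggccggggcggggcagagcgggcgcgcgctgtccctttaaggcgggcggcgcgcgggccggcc
Wnt7a: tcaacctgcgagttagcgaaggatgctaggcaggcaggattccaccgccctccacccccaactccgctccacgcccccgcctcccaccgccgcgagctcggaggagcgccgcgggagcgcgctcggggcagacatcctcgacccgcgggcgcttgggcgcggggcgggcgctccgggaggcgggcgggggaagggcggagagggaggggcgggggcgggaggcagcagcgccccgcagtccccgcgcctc
In Sp5 the motif CTTTGAT starts 104 bases before the start site on the gene's own strand (position −104). The windows shown for Axin2 and Wnt7a hold neither motif, which says only that these letters are not in these windows. Promoter windows of 300 bases (250 upstream and 50 downstream) were at hand for 34 of the 54 genes. Of these, 4 had a match (Sp5, Wnt5b, Wnt11 and Dkk1), and 1 of the 10 called genes with a window did, namely Sp5. Among all 32851 windows 8.65% held a match, and among the 42 windows of WNT genes 9.52%.

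Porcn, the acyltransferase that every WNT ligand but rare exceptions needs for secretion, had the smallest p of the 39 genes tested. The counted transcript (NR_131893, mm10 chromosome X, 8193846 to 8206525, minus strand) was at 47.7, 32.8, 38.0 and 61.1 CPM in replicates 1 to 4 labelled KO and at 106, 138, 178 and 103 CPM in those labelled WT. The groups did not overlap, and the highest tumours were the WT replicates 2 and 3. The means were 44.9 ± 12.4 and 131 ± 35.0 CPM (SD, n = 4 each). Porcn was lower by −1.54 ± 0.24 on the log2 scale (SE, edgeR adjusted p = 0.00524), or 2.91-fold lower. The deposited FPKM values of Porcn are for another, shorter transcript (1349 bases, against 2644 for the counts). Porcn is X-linked, and each group held 3 tumours with Xist, the RNA of the inactive X chromosome, at 1119 CPM or more and 1 with the Y-linked gene Ddx3y. The latter, KO replicate 3 and WT replicate 2, had Porcn at 38.0 and 138 CPM, inside the range of their own groups. Notum, the extracellular enzyme that removes the lipid again, had 4 to 25 counts per tumour and was not tested.

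Wnt7b and Wnt7a were the most abundant Wnt transcripts per kilobase in these samples and both fell. Which cells of the samples their reads came from was not tested. Wnt7b (NM_009528, chromosome 15, 85535437 to 85581821, minus strand) was at 82.7, 45.9, 59.4 and 84.5 CPM in replicates 1 to 4 labelled KO and at 136, 166, 121 and 117 CPM in those labelled WT. No tumours overlapped between the groups, and the log2 fold change was −0.99 ± 0.20 (adjusted p = 0.0121), or 1.98-fold lower. Wnt7a (NM_009527, chromosome 6, 91363983 to 91411369, minus strand), its closest relative, was at 25.7, 19.5, 16.6 and 34.6 CPM against 62.2, 61.4, 71.1 and 52.0 CPM. Here too all tumours labelled KO were lower, by −1.35 ± 0.22 (adjusted p = 0.006005), or 2.55-fold. Wnt5a, a ligand best known for branches that do not use beta-catenin, was at 9.36, 7.43, 8.40 and 10.1 CPM against 15.3, 13.5, 13.8 and 17.2 CPM. Its fall of 1.69-fold (log2 fold change −0.76 ± 0.14, adjusted p = 0.00838) had the smallest standard error of the 3 ligands called.

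Per kilobase of the counted transcript, which allows levels of different genes to be compared, the 19 Wnt genes together summed to 33.5 to 47.1 CPM per kb in tumours labelled KO, against 70.9 to 90.5 CPM per kb where the label was WT. Wnt7a and Wnt7b together gave 57.3% to 76.5% of that sum in tumours labelled KO, against 72.2% to 77.1% where the label was WT. KO replicate 2 was the lowest (57.3%), and the other tumours labelled KO were at 68.4% to 76.5%. Wnt7a alone took 15.6% to 23.2% against 21.4% to 29.6%, and these shares overlapped.

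**Figure D2:**
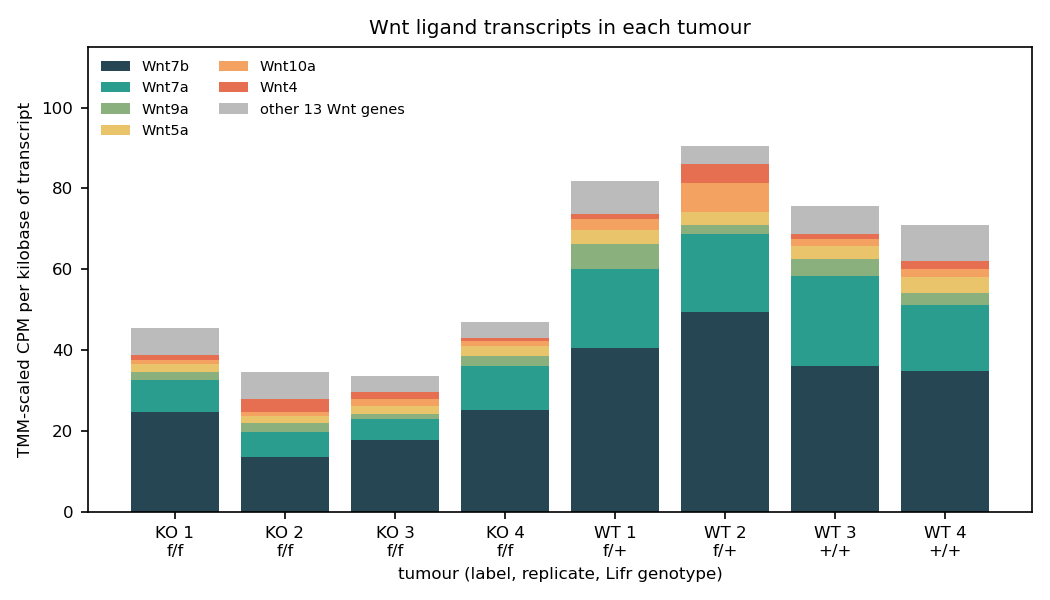
Stacked bars give the TMM-scaled CPM per kilobase of transcript of the 6 most abundant Wnt ligand genes and of the other 13 summed, in each tumour with its label, replicate and Lifr genotype. Wnt7b and Wnt7a make up most of every bar, and the bars of the tumours labelled KO end at 33.5 to 47.1, below those labelled WT at 70.9 to 90.5.

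The other 8 Wnt genes tested were not called. Wnt9a was at 6.39 ± 1.86 against 12.8 ± 5.48 CPM (adjusted p = 0.0637), Wnt10b at 2.52 ± 0.643 against 5.05 ± 1.98 CPM (0.0735) and Wnt10a at 2.67 ± 0.806 against 6.74 ± 5.06 CPM (SD, n = 4 each; 0.0798). The Wnt10a level in the tumours labelled WT rested on WT replicate 2 (14.2 CPM, the others 3.23 to 5.47 CPM). The same tumour had the highest Wnt4, at 17.6 CPM, next to 11.7 CPM in KO replicate 2 and 2.62 to 7.13 CPM in the other 6. Wnt4 (log2 fold change −0.52 with a 95% interval of −1.78 to 0.73), Wnt11 (−0.58, −1.36 to 0.19), Wnt5b (−0.38, −0.92 to 0.16) and Wnt2b (−0.035, −0.86 to 0.79) had intervals that reached both sides of 0. Wnt2, a ligand of mesenchymal cells, is described with the Sfrp genes. The 8 Wnt genes not tested were Wnt1, Wnt3, Wnt3a, Wnt6, Wnt8a, Wnt8b, Wnt9b and Wnt16, with 0 to 16 counts in any tumour, and Wnt3a and Wnt8a had none in any of the 8.

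The Frizzled receptors were all tested, and 5 of the 10 fell while 0 rose, beside 10.8% and 11.1% of all genes tested. Fzd6, a receptor used in planar cell polarity and also known to restrain the canonical branch, was at 17.8, 16.5, 16.0 and 29.7 CPM in replicates 1 to 4 labelled KO and at 50.2, 42.2, 41.3 and 30.2 CPM in those labelled WT. KO replicate 4 stood close to WT replicate 4 and apart from the other tumours labelled KO. The log2 fold change was −1.03 ± 0.23 (adjusted p = 0.0156), and the call was lost without KO replicate 2 (0.0510). Fzd1 was at 40.0, 43.8, 34.4 and 38.1 CPM against 55.0, 50.5, 56.1 and 62.8 CPM. It fell by 1.44-fold (log2 fold change −0.52 ± 0.098, adjusted p = 0.00888), without overlap, and was the only Frizzled gene called with any 1 tumour left out.

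The 3 other Frizzled calls were of genes at low level. Fzd2 was at 7.73, 9.61, 9.30 and 9.64 CPM in replicates 1 to 4 labelled KO against 16.8, 9.83, 14.5 and 12.7 CPM in those labelled WT (log2 fold change −0.57 ± 0.18, adjusted p = 0.0495). Fzd8 was at 5.84, 5.73, 4.86 and 5.80 CPM against 8.44, 6.80, 11.1 and 8.96 CPM (−0.67 ± 0.17, 0.0282). Fzd10 was at 0.842, 0.477, 0.694 and 0.889 CPM against 1.56, 1.96, 2.15 and 1.18 CPM, from 7 to 48 counts per tumour (−1.22 ± 0.30, 0.0213). In all 3 genes the groups stood apart, by the least in Fzd2, where WT replicate 2 nearly met the tumours labelled KO. Each of these calls was lost when some single tumours were left out: Fzd2 in 7 of 8 such fits (all but that without WT replicate 2, highest adjusted p = 0.120), Fzd8 in 6 (all but those without KO replicate 4 or WT replicate 2, 0.0731) and Fzd10 in 3 (KO replicate 2 or 3 or WT replicate 3, 0.0618). Fzd3 did not overlap between the groups either (12.2 to 17.3 against 18.2 to 22.9 CPM) and missed the threshold (adjusted p = 0.0520).

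Fzd7 and Fzd5, both frequent receptors of gut-type epithelium, were abundant and not called. Fzd7 was at 44.9, 39.7, 43.0 and 41.3 CPM in the tumours labelled KO and at 51.2, 36.2, 90.5 and 38.3 CPM in those labelled WT, so that WT replicate 3 alone stood high (log2 fold change −0.36, 95% interval −0.97 to 0.26). Fzd5, whose loss blocks the growth of pancreatic cells that lack RNF43, was at 34.3, 28.2, 41.8 and 41.1 CPM against 58.4, 57.6, 56.7 and 34.1 CPM. There WT replicate 4 was as low as the tumours labelled KO (adjusted p = 0.0951). Fzd1, Fzd5, Fzd6 and Fzd7 together gave 74.1% to 76.4% of the Frizzled CPM per kilobase in tumours labelled KO, against 75.9% to 77.1% where the label was WT, and the Frizzled sum was 35.6 to 40.0 against 45.7 to 65.1 CPM per kb. Fzd4 (10.3 ± 1.74 against 13.0 ± 4.15 CPM) and Fzd9 (1.87 ± 0.947 against 1.44 ± 0.803 CPM, SD, n = 4 each) were not called.

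Of the co-receptors Lrp6 was called and Lrp5 was not. Lrp6, the co-receptor that is phosphorylated when a ligand binds, was at 396, 176, 277 and 398 CPM in replicates 1 to 4 labelled KO and at 167, 203, 121 and 150 CPM in those labelled WT. KO replicates 1 and 4 were highest, and KO replicate 2 lay within the range of the tumours labelled WT. Lrp6 rose 1.94-fold (log2 fold change 0.96 ± 0.27, adjusted p = 0.0339). Leaving out any of KO replicates 1, 3 and 4 or WT replicates 1, 3 and 4 ended the call (highest adjusted p = 0.0916), as did scaling by library totals alone (log2 fold change 0.77). Lrp5, its relative and the most abundant of the 54 genes per kilobase, was at 195, 183, 177 and 225 CPM against 242, 249, 283 and 219 CPM, and at an adjusted p of 0.0506 it was not called. The mean level per kilobase of Lrp5 was 37.9 and that of Lrp6 33.4 CPM per kb in the tumours labelled KO, against 48.2 and 17.2 CPM per kb in those labelled WT.

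In the R-spondin branch the receptor genes Lgr4 and Lgr6 and the ligase gene Rnf43 fell, and Lgr5 and Znrf3 were not called. Lgr6 was at 18.3, 12.7, 16.7 and 20.6 CPM in replicates 1 to 4 labelled KO and at 44.4, 25.9, 31.2 and 35.5 CPM in those labelled WT, without overlap (log2 fold change −0.998 ± 0.19, adjusted p = 0.0101). Lgr4, the widely expressed member, was at 35.9, 26.0, 37.3 and 28.8 CPM against 39.4, 43.9, 49.8 and 46.9 CPM (−0.49 ± 0.13, 0.0308). Leaving out KO replicate 2, KO replicate 4 or any of WT replicates 2, 3 and 4 ended that call (highest adjusted p = 0.0806). Lgr5, the marker of gut stem cells, was at 11.7 ± 3.32 against 18.1 ± 7.09 CPM (SD, n = 4 each), with overlap, and was not called (adjusted p = 0.159).

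Rnf43, a ubiquitin ligase that is itself a WNT target, was at 14.8, 12.4, 17.4 and 16.9 CPM in the tumours labelled KO and at 24.9, 39.5, 27.9 and 20.3 CPM in those labelled WT. It fell by 1.83-fold (log2 fold change −0.87 ± 0.21, adjusted p = 0.0191), and the call was lost without KO replicate 2 (0.0585). Znrf3, the other ligase, was at 20.5 ± 3.12 against 23.6 ± 4.66 CPM and was not called (adjusted p = 0.419). Of the R-spondins only Rspo1 was tested, at 4.41 ± 1.67 against 4.36 ± 2.50 CPM (SD, n = 4 each, adjusted p = 0.982). Rspo2, Rspo3 and Rspo4 had 0 to 10 counts per tumour.

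Both TCF/LEF genes of the rule and both target genes fell, and in each the groups did not overlap. Of all genes tested 10.8% were called lower, and in 12.3% all tumours labelled KO lay below all labelled WT. The call of Sp5 is a description, since it passed the filter mainly through the tumours labelled WT. Sp5, a transcription factor induced directly by beta-catenin, whose upstream sequence with its motif is printed above, had 14, 6, 6 and 8 counts (0.693, 0.409, 0.417 and 0.375 CPM) in replicates 1 to 4 labelled KO. It had 41, 18, 46 and 46 counts (2.14, 0.838, 2.06 and 2.71 CPM) in those labelled WT. WT replicate 2 was the lowest of its group and close to KO replicate 1. The log2 fold change of −2.001 ± 0.41 (adjusted p = 0.0116) was the largest fall of the 39 genes and rested on 6 to 46 counts per tumour. Axin2, the feedback inhibitor used as a reporter of canonical signalling, was at 5.15, 4.84, 7.92 and 7.30 CPM against 14.7, 10.1, 12.9 and 8.54 CPM (log2 fold change −0.87 ± 0.23, adjusted p = 0.0291). Leaving out KO replicate 1, KO replicate 2, WT replicate 1 or WT replicate 3 ended its call (highest adjusted p = 0.0802).

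Tcf7, which codes for the factor TCF1, was at 20.9, 17.5, 17.6 and 23.0 CPM in the tumours labelled KO and at 35.5, 37.3, 25.7 and 26.6 CPM in those labelled WT. In this gene the f/+ tumours were the highest, and the log2 fold change was −0.66 ± 0.16 (adjusted p = 0.0188), with the call ended by leaving out KO replicate 2 or KO replicate 3 (highest adjusted p = 0.0599). Lef1, its relative, was at 1.88, 1.16, 1.74 and 1.12 CPM against 3.18, 2.84, 3.32 and 2.18 CPM, from 17 to 74 counts per tumour (log2 fold change −0.96 ± 0.26, adjusted p = 0.0296). The Lef1 call ended when KO replicate 2, KO replicate 4 or any of WT replicates 1, 2 and 3 was left out (highest adjusted p = 0.0883). Both factors are also expressed by T cells, and the 11 T and B lymphocyte markers summed to 37.4 to 80.6 CPM in the tumours labelled KO against 19.5 to 54.8 CPM, with 0 of 9 tested called. The part of lymphocyte RNA in these genes was not tested.

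Of the 5 secreted antagonists of the Sfrp and Dkk families tested, 1 rose and 0 fell, beside 11.1% and 10.8% of all genes tested. The 1 that rose, Sfrp4, passed the filter only through the group where it was high. Sfrp4 was at 2.28, 4.70, 1.11 and 0.796 CPM in replicates 1 to 4 labelled KO, from 46, 69, 16 and 17 counts, and at 0.208, 0.186, 0.224 and 0.412 CPM in those labelled WT, from 4, 4, 5 and 7 counts. All tumours labelled KO were higher, and the log2 fold change was 3.09 ± 0.63 (95% interval 1.66 to 4.52, adjusted p = 0.0115). Sfrp1, which gave 54.5% to 74.1% of the Sfrp CPM per kilobase in tumours labelled KO, against 31.4% to 75.8% where the label was WT, was at 48.6, 72.1, 24.4 and 24.5 CPM against 12.0, 9.64, 12.0 and 46.9 CPM. WT replicate 4 lay among the tumours labelled KO, and Sfrp1 was not called (log2 fold change 1.08, 95% interval −0.23 to 2.39). Sfrp2 was at 8.17, 22.1, 4.72 and 2.90 CPM against 8.70, 4.80, 11.4 and 6.19 CPM, with KO replicate 2 far above the rest.

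These genes are products of fibroblasts in many tissues, and the level of fibroblast markers varied among the same tumours. The 12 fibroblast markers summed to 1703, 4377, 1825 and 798 CPM in replicates 1 to 4 labelled KO and to 591, 1139, 427 and 1551 CPM in those labelled WT. KO replicate 2, highest in the markers, was highest in Sfrp1, Sfrp2 and Sfrp4. WT replicate 4, highest in the markers among tumours labelled WT, was highest there in Sfrp1 and Sfrp4. Sfrp2 was highest there in WT replicate 3 (11.4 CPM), which had the lowest marker sum (427 CPM). KO replicate 4 had a lower marker sum than WT replicate 4 (798 against 1551 CPM) and more Sfrp4 (0.796 against 0.412 CPM). Wnt2 was at 3.81, 3.89, 1.67 and 1.03 CPM against 0.729, 1.16, 0.762 and 3.48 CPM, and WT replicate 4 again stood apart in its group (adjusted p = 0.406). With the mean log2 CPM of the fibroblast markers as a covariate, the Sfrp4 log2 fold change was 1.49 and was not called (adjusted p = 0.140), in a fit that called 0 of all 14728 genes (edgeR; 3162 at an unadjusted p under 0.05). Without KO replicate 2 and WT replicate 4, those with most fibroblast RNA in each group, the Sfrp4 log2 fold change was 2.73 (edgeR adjusted p = 0.0238). That value too is a description, since Sfrp4 passed the filter only through the tumours labelled KO. Whether fibroblast RNA accounts for these levels was not tested beyond these values.

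**Figure D3:**
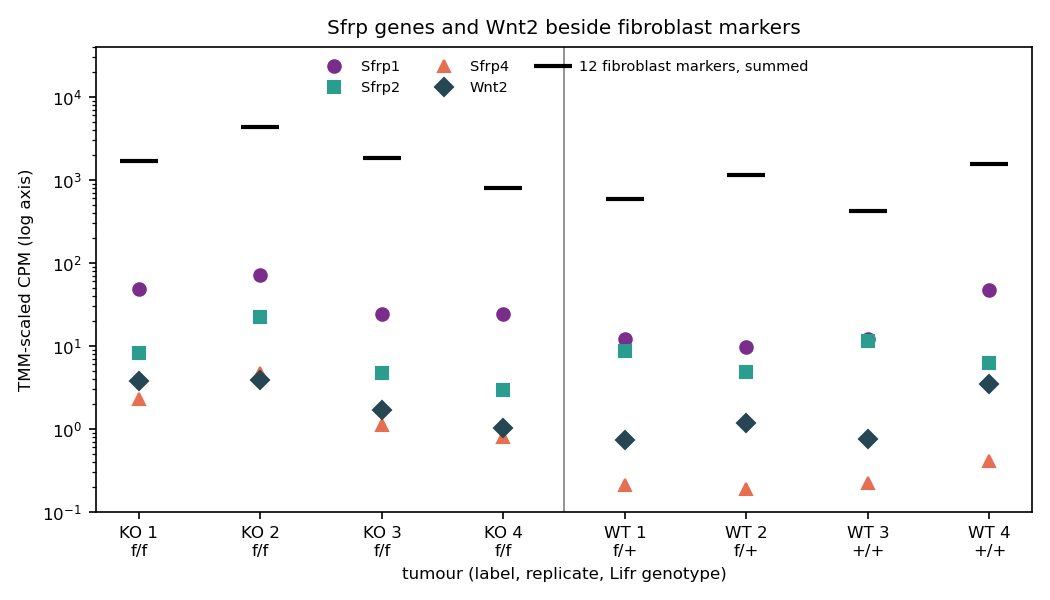
TMM-scaled CPM (log axis) of Sfrp1, Sfrp2, Sfrp4 and Wnt2 in each tumour, with black bars for the sum of 12 fibroblast markers; the vertical line parts tumours labelled KO from those labelled WT. KO replicate 2 is highest in the markers (4377 CPM) and in the 3 Sfrp genes, and WT replicate 4 has the highest markers (1551 CPM), Sfrp1, Sfrp4 and Wnt2 among the tumours labelled WT. Among these, Sfrp2 is highest in WT replicate 3 (11.4 CPM), which is lowest in the markers (427 CPM).

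Of the Dkk genes, whose products bind Lrp5 and Lrp6, Dkk3 was at 12.4 ± 2.52 against 19.2 ± 6.33 CPM (adjusted p = 0.119) and Dkk2 at 13.8 ± 4.19 against 15.5 ± 7.60 CPM (SD, n = 4 each; 0.783). Dkk3 is a divergent member that is not known to bind these co-receptors. Neither gene was called, Dkk1 and Dkk4 had at most 1 count in any tumour, and Sfrp5 had 1 to 7. Axin2, Fzd5, Fzd6, Lef1, Sfrp2, Wnt5a, Wnt7b and Wnt11 share exon bases with a gene on the opposite strand in GENCODE M21 (152 to 1233 bases), and without a stated strand setting the reads of such partners cannot be told apart.

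Epithelial markers were lower in the same tumours, and the falls were therefore also measured against them. With libraries scaled to the summed counts of the 18 epithelial markers, which shifted the all-gene median fold change (log2) from 0.011 up to 0.86, 3 of the 39 genes stayed called lower, beside 0.699% of all genes. These were Sp5 (log2 fold change −1.22 ± 0.47, adjusted p = 0.0335), Porcn (−0.71 ± 0.18, 0.00353) and Wnt7a (−0.54 ± 0.18, 0.0176). Sp5 passed the filter mainly through the tumours labelled WT, so its call is a description here too. Per 1000 epithelial marker reads there were 8.54 to 11.3 Porcn reads in tumours labelled KO, against 13.4 to 20.8 where the label was WT, without overlap. Wnt7a had 3.81 to 6.40 reads against 6.40 to 8.34 on this scale, where KO replicate 4 and WT replicate 2 met. Sp5 had 0.0693 to 0.142 against 0.0874 to 0.377, with overlap.

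Wnt7b (−0.16), Rnf43, Axin2 (−0.036), Lef1 (−0.11), Lgr6 (−0.20), Fzd6 (−0.21) and Fzd10 (−0.39) stayed at or below 0 on the epithelial scale and were not called. Wnt5a, Fzd1, Fzd2, Fzd8, Lgr4 and Tcf7 turned above 0 (0.058 to 0.35) and were not called either. On the same scale 7 genes were called higher (Lrp6, Lrp5, Sfrp1, Sfrp4, Wnt2, Fzd9 and Znrf3), beside 73.6% of all genes. The call of Sfrp4 is a description, since it passed the filter only through the tumours labelled KO. Wnt5a gave 1.87 to 1.94 reads per 1000 epithelial marker reads in the tumours labelled KO, a range inside that of the tumours labelled WT. Whether the lower epithelial share accounts for the falls was not tested beyond these values.

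**Figure D4:**
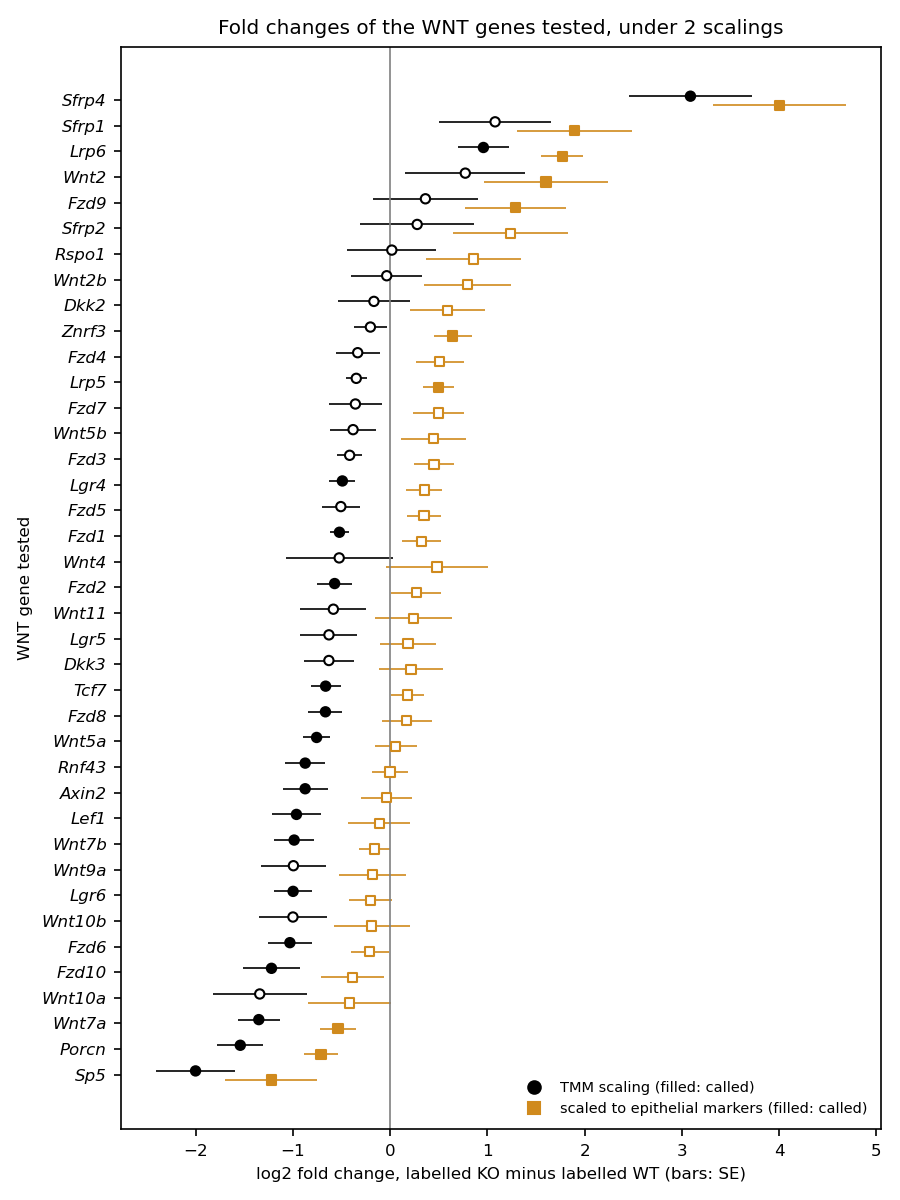
Log2 fold changes (labelled KO minus labelled WT, bars are SE) of the 39 WNT genes tested, with TMM scaling (black circles) and with libraries scaled to 18 epithelial markers (orange squares); filled symbols were called. With the second scaling every gene moves up, Sp5, Porcn and Wnt7a stay called below 0, and Wnt5a, Fzd1, Fzd2, Fzd8, Lgr4 and Tcf7 lie above 0. The calls of Sp5 and Sfrp4 are descriptions, since each passed the filter mainly or only through the group where it was high.

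The tumours labelled WT held 2 genotypes, and each was also compared alone. The 2 comparisons share the tumours labelled KO. Against the +/+ tumours alone 7 of 41 genes tested were called (Porcn, Wnt7a, Wnt5a, Sp5, Fzd1, Fzd8 and Lgr6), beside 7.34% of all genes. Against the f/+ tumours alone 10 of 41 were called (Porcn, Wnt7a, Wnt7b, Wnt5a, Fzd6, Lgr6, Rnf43, Tcf7, Fzd5 and Wnt10a), beside 12.8% of all genes. The Porcn log2 fold change was −1.64 against +/+ and −1.43 against f/+, and that of Wnt7a was −1.35 in both. Lrp6 (1.20 and 0.75) and Sfrp4 (2.80 and 3.44) were not called against either. A direct difference between f/+ and +/+ tumours was not tested here.

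With any 1 tumour left out, 8 of the 18 called genes kept their call (Porcn, Wnt7a, Wnt7b, Wnt5a, Fzd1, Lgr6, Sp5 and Sfrp4). Because of the filter, the kept calls of Sfrp4 and Sp5 are descriptions. In these fits the Porcn log2 fold change ranged from −1.74 to −1.36, that of Wnt7a from −1.59 to −1.21 and that of Wnt7b from −1.12 to −0.84. With a covariate for acinar RNA (the acinar markers averaged as log2 CPM), 8 of the 39 genes were called, beside 15.8% of all genes, a share not far from it. Of these, 6 were among the 18 (Porcn, Wnt7a, Wnt7b, Wnt5a, Rnf43 and Tcf7).

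Other genes of the pathway, which the rule did not take, were taken from 6 lists chosen with earlier results of these data known. Of 77 such genes 71 were tested, 18 fell, 2 rose and 51 did not pass, beside 10.8% of all genes called lower, 11.1% called higher and 21.8% called in either direction. The median log2 fold change was −0.23. Among 7 tested genes for WNT secretion and other receptors, 4 fell and 0 rose. Wls, the carrier that takes lipid-modified ligands to the cell surface, was at 194 ± 42.1 against 310 ± 55.6 CPM (SD, 4 tumours each) and fell (log2 fold change −0.68 ± 0.19, adjusted p = 0.0352). The receptor genes Ror2 (−1.33), Ptk7 (−0.99) and Ryk (−0.47) fell with it. Among 7 tested antagonists outside the Sfrp and Dkk families, 0 were called, with Kremen1, a co-receptor of Dkk proteins, at 49.0 against 57.5 CPM (adjusted p = 0.0558) and Apcdd1 at 2.24 against 6.33 CPM (0.0913). These 2 were also the ones with an unadjusted p under 0.05 by edgeR.

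Inside the cell, 2 of 19 genes of beta-catenin and its destruction complex fell, a share near the 10.8% of all genes called lower. Ctnnb1, which codes for beta-catenin and also serves in adherens junctions, was at 1220 ± 78.5 against 1717 ± 163 CPM (SD, 4 tumours each; log2 fold change −0.49 ± 0.11, adjusted p = 0.0171), and the kinase gene Csnk1e was lower by −0.46. Of 11 nuclear partners tested, 3 fell and 1 rose: Tcf7l2, the main TCF factor of gut epithelium (−0.997), Bcl9l (−0.54) and Bcl9 (−0.39) fell, and the corepressor gene Tle4 rose (0.42). Among 15 further targets 5 fell, namely Ephb2 (−0.999), Ccnd1 (−0.95), Ephb3 (−0.92), Sox9 (−0.73) and Cd44 (−0.59), while Fgf9 rose (0.98). The median log2 fold change of this list was −0.098, and 9 of its genes were not called. Of those, Tbx3 (0.89), Ascl2 (0.60), Zfp703 (0.42) and Bambi (0.35) lay above 0. Tnfrsf19 (−0.43), Myc (−0.24), Nkd1 (−0.098), Nkd2 (−0.042) and Prox1 (−0.032) lay below it. Several of the 15 targets are also controlled by other pathways. In the planar polarity branch 4 of 12 fell, the core genes Vangl1 (−0.82), Vangl2 (−0.70) and Celsr1 (−0.63) and the formin gene Daam1 (−0.35). With libraries scaled to the epithelial markers 0 of the 71 genes were called lower and 42 higher, beside 0.699% and 73.6% of all genes, and 46 had an unadjusted p under 0.05 in either direction.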

How the data were processed

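RNA of EpCAM-positive cells from 8 tumours was sequenced, with 1 library per mouse. The authors deposited raw read counts per gene, with 1 RefSeq transcript per row per the file headers, and a table of FPKM values (fragments per kilobase, scaled to library size). Tools listed, without roles, in the submitters' processing notes are STAR 2.4.0k, HOMER, edgeR 3.6.8 and FastQC 0.11.2, with the build mm10. Strand settings are not given in the sources used here. Groups came from the sample titles. The counts were fitted with edgeR 4.0.16 (R 4.3.3): filterByExpr (minimum count 10), TMM scaling, glmQLFit and glmQLFTest over 14728 genes, Benjamini-Hochberg adjustment and a threshold of 0.05. The p-values set the difference between the groups against the spread between tumours. Intervals are 95% confidence intervals of the fit, and SE is the standard error of the log2 fold change. Fits were also run on simulated counts with known changes, as many up as down. Those counts held no shift in cell make-up, so they do not cover the effect of scaling.

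Levels are TMM-scaled CPM, divided by transcript length where genes are compared. Members, pathway lists and marker lists were chosen with earlier results of these data known. Every member was to be accounted for: called ones by tumour, others tested by group means or by tumour, and the rest by counts. Alternatives were RLE factors, library totals, epithelial scaling, DESeq2 1.42.0, no filter, robust dispersion, acinar and fibroblast covariates, each control genotype alone, each tumour left out, and limma 3.58.1 on log2(FPKM + 1) and log2(FPKM + 0.1). Replicate numbers follow the listing order and pair no tumours.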

Additional observations from a re-analysis of the deposited data

Results flagged for a closer look

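In 7 of 78 groups of 4 tumours, 1 tumour stood far from the other 3, with a gap to its nearest neighbour large against the group's range (Dixon's 95% criterion). Chance alone flags about 1 in 20 groups. WT replicate 4 was the one in 4 of them. It had the lowest Fzd5 of the tumours labelled WT, at 34.1 CPM (the others 56.7 to 58.4 CPM). It had the highest Sfrp1, at 46.9 CPM (9.64 to 12.0 CPM), the highest Sfrp4, at 0.412 CPM (0.186 to 0.224 CPM), and the highest Wnt2, at 3.48 CPM (0.729 to 1.16 CPM). Among the tumours labelled KO, replicate 4 had the highest Fzd6, at 29.7 CPM (16.0 to 17.8 CPM). KO replicate 3 had the lowest Fzd8, at 4.86 CPM (5.73 to 5.84 CPM), and KO replicate 1 the highest Sp5, at 0.693 CPM (0.375 to 0.417 CPM). The Sfrp4 flag rested on 7 counts beside 4, 4 and 5, and the Sp5 flag on 14 beside 6, 6 and 8. Whether these gaps exceed counting noise was not tested.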

How the results depend on the processing

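Of the WNT genes 18 were called (16 lower, 2 higher), and of the further pathway genes 20 (18 lower, 2 higher), beside 21.8% of all genes. With epithelial scaling the counts were 10 (3 lower, 7 higher) and 42 (all higher), beside 74.3% of all genes called. They were 8 and 13 with the acinar covariate (15.8% of all genes) and 0 and 0 with the fibroblast covariate (0% of all genes). In the fibroblast fit 15 and 18 had an unadjusted p under 0.05 by edgeR. DESeq2, run without covariate, called 23 and 26 (26.2% of all genes). Against +/+ tumours the counts were 7 and 8 (7.34% of all genes), and against f/+ tumours 10 and 11 (12.8%). Leaving out 1 tumour gave 9 to 19 and 11 to 21 (11.7% to 21.7% of all genes). The lowest were without KO replicate 2, and 11 and 13 were called without WT replicate 3. In 2 alternatives chosen after seeing the data, tumours of both groups were left out. The counts were 11 and 12 (12.9% of all genes) without KO replicate 1 and WT replicate 2, where acinar RNA was highest. They were 13 and 12 (12.3%) without those with most fibroblast RNA. Fold changes that reversed did so with epithelial scaling alone: Fzd1 to 0.33, Fzd2 to 0.27, Fzd8 to 0.17, Lgr4 to 0.35, Tcf7 to 0.18 and Wnt5a to 0.058 (log2). The cause was not tested. The other alternatives, among them limma on FPKM (17 and 28 called, where Fzd10, Lef1, Sfrp4 and Sp5 were below the filter), kept the counts within 1.5 times. No paired analysis was possible because the replicate numbers only follow the listing order. Depth limits Sp5, Sfrp4 and Fzd10, with 4 to 69 counts per tumour.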
